A study of Mus musculus with 9 samples.

Results

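Monocarboxylate transporters (MCTs) of the SLC16 family and the 2 glycoproteins that escort them to the cell surface were followed in primary splenic B cells. The 8 genes were taken from the deposited FPKM table by their symbols, *Slc16a1*, *Slc16a3*, *Slc16a7*, *Slc16a6*, *Slc16a10*, *Slc16a13*, *Bsg* and *Emb*, out of 17596 genes in all, and each symbol was found once. RNA was sequenced from B cells of *Mb1Cre* mice, the control, and of *Mct1f/fMb1Cre* mice (written Mctf/fMb1Cre in the labels), either naïve (day 0) or activated in culture with LPS at 10 μg/mL plus IL-4 at 50 ng/mL until day 3. There were 2 libraries of *Mb1Cre* and 2 of *Mct1f/fMb1Cre* on day 0, and 2 and 3 libraries on day 3. The floxed line was on the C57BL/6J background. All mice were 6 to 8 weeks old and carried *Mb1*-Cre, which is active in the B cell lineage. The *Mct1f/fMb1Cre* mice carried in addition 2 floxed copies of *Mct1*, the gene listed as *Slc16a1*, with the floxed sites at exon 1 and intron 3. The activated B cells were compared with naïve cells and not with cells cultured without LPS and IL-4, so that activation and time in culture cannot be told apart.

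MCT1 (*Slc16a1*), MCT2 (*Slc16a7*) and MCT4 (*Slc16a3*) move lactate, pyruvate and ketone bodies together with a proton across the membrane, in the direction the gradients set. MCT2 has a high affinity for its substrates and is linked to uptake, whereas MCT4 is linked to lactate export from glycolytic cells. MCT1 and MCT4 need basigin (*Bsg*, CD147) as a chaperone, and MCT2 pairs mainly with embigin (*Emb*). *Slc16a6* encodes MCT7, a transporter of ketone bodies in liver, *Slc16a10* encodes TAT1, a carrier of aromatic amino acids that needs no proton, and *Slc16a13* encodes MCT13. Lymphocytes that leave rest switch to glycolysis and release lactate.

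The sequences that define the measurement of *Slc16a1* and the promoters of 3 transporters that were called upon activation are shown first. In the GENCODE annotation of GRCm38, the coding transcript of *Slc16a1* has 5 exons, and the forward primer that the study used for quantitative PCR of *Slc16a1* covers 17 bases of exon 3 and 7 bases of exon 4, while the reverse primer lies in exon 4. Both primers matched the transcripts of *Slc16a1* alone, with a product of 136 bases, and the forward primer therefore needs exon 3, which lies between the floxed sites as the methods describe them. The FPKM of *Slc16a1*, in contrast, is 1 value for all exons, of which exons 1 to 3 make up 12.8% of the transcript. Any reads of exons 4 and 5 from a deleted allele would count in it, so full and shortened transcripts are not told apart. This holds for every value of *Slc16a1* given below. In the primers (5′ to 3′), capitals mark the bases of exon 3.
*Slc16a1* forward primer: CATTGGTGTTATTGGAGgtcttgg
*Slc16a1* reverse primer: ggtagagaggaacacagggct

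RefSeq promoter windows (GRCm38.p6) were found for 4 of the 8 genes, *Slc16a1*, *Slc16a3*, *Slc16a10* and *Emb*. The 250 bases before the start site were searched on both strands for the E-box CACGTG and for ACGTG, the core of the hypoxia response element, which is also contained in CACGTG. They were also searched for a STAT motif, TTC and GAA separated by 4 bases, and other spacings of it were not searched. Among 32851 promoter windows of the same length, 6.02% held CACGTG, 16.6% held ACGTG and 5.85% held the STAT motif. The windows of *Slc16a1* (chr3:104638414-104638663, forward strand) and *Slc16a3* (chr11:120948817-120949066, forward strand), which both rose upon activation, are given with that of *Slc16a10* (chr10:40142255-40142504, reverse strand), which fell. No window was given for *Slc16a7*, which fell further. Capitals mark CACGTG or ACGTG.
*Slc16a1*: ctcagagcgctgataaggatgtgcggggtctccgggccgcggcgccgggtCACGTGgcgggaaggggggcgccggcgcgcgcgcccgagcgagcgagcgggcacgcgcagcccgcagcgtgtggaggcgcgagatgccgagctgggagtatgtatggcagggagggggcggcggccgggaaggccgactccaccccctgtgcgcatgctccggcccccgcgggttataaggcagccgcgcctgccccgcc
*Slc16a3*: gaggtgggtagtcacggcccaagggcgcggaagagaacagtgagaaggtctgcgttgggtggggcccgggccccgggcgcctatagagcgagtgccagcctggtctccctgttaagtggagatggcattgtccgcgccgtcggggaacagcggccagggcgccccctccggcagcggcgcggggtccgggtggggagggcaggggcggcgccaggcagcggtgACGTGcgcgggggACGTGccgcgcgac
*Slc16a10*: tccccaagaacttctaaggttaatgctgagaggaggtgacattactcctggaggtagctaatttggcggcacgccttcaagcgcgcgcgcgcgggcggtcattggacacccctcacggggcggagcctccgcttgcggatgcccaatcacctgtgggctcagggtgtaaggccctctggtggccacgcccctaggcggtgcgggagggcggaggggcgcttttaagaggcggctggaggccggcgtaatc

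The window of *Slc16a1* held 1 CACGTG, which begins 200 bases before the start site and accounts for its ACGTG matches. The window of *Slc16a3* held ACGTG 27 and 14 bases before the start site and no CACGTG. The window of *Emb* (chr13:117220323-117220572) starts within the gene as annotated by GENCODE, and all 250 of its bases lie in annotated exons. None of the 3 motifs was found in the windows of *Slc16a10* and *Emb*, and the STAT motif with this spacing of 4 bases was found in none of the 4. These matches describe letters in a window and not bound sites.

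The genes lie apart in the genome. On the GENCODE annotation of GRCm38, *Slc16a1* lies on chromosome 3 (104638668 to 104658462), *Emb* on chromosome 13 (117208536 to 117274415), *Slc16a7* (125219270 to 125389465), *Slc16a10* (40033532 to 40142258) and *Bsg* (79704491 to 79711969) on chromosome 10, and *Slc16a3* (120948480 to 120960868), *Slc16a6* (109450855 to 109473598) and *Slc16a13* (70216789 to 70221064) on chromosome 11. The exons of *Slc16a6* share 23.5% of their bases with *Arsg* and *Amz2* on the other strand and with *Gm25540* on the same strand. Those of *Emb* share 9.93% with an antisense gene and those of *Slc16a7* share 1.51% with another antisense gene. Whether reads were counted by strand is not given in the sources used here, so reads in these stretches cannot be assigned with certainty. Of the 50-base words of the main coding transcripts, at most 0.192% (*Slc16a7*) occurred in transcripts of another gene.

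The libraries of 1 group resembled each other, with correlations of 0.993 to 0.998 over the tested genes, and the FPKM of all genes summed to 477079 to 491459 on day 0 and to 547355 to 563586 on day 3. All 8 B cell markers of a list with *Cd79a*, *Cd79b* and others were present in each group, and their sum was lower on day 3. It was 14190 to 15726 FPKM on day 0 and 8634 to 9232 on day 3. In the control means *Cd79a* went from 1653 to 571 FPKM and *Blk* from 185 to 18.7. Summed myeloid markers (8 genes, *Lyz2* among them) were 1029 to 1862 FPKM on day 0 and 15.1 to 25.4 on day 3. By genotype they were 15.1 to 16.8 FPKM in control and 22.2 to 25.4 FPKM in *Mct1f/fMb1Cre* libraries of day 3. *Mpo* and *Elane* had a mean under 0.1 FPKM on day 3. Erythroid markers (7 genes) summed to 126 to 232 FPKM on day 0 and 4.34 to 7.95 on day 3, T cell markers (6 of 7 genes found) to 47.6 to 52.3 and 11.3 to 13.6, and NK cell markers (4 genes) to 67.0 to 82.8 and 85.3 to 98.4. Of the NK cell markers only *Gzma* was higher on day 3 (38.9 to 90.9 FPKM in the control means), while *Ncr1* (8.89 to 0.41), *Klrb1c* (6.51 to 0.49) and *Nkg7* (20.6 to 5.01) were lower. Platelet markers (3 genes) summed to 3.98 to 10.3 FPKM on day 0 and 2.36 to 3.94 on day 3, and plasma cell markers (3 genes) to 72.7 to 168 and 91.1 to 137. In the control means of day 3 the T cell sum was mostly *Lck* (10.4 FPKM), with *Cd3e* at 0.075 and *Cd4* at 0.05. The platelet sum was then mostly *Pf4* (2.285 to 2.055 from day 0 to day 3), while *Ppbp* went from 3.31 to 0.12. Among plasma cell markers *Prdm1* rose (2.005 to 8.40) and *Sdc1* fell (7.27 to 2.415). *Jchain* rose in the control (70.1 to 121) and fell in *Mct1f/fMb1Cre* cells (139 to 87.4). Between the genotypes on day 3, the B cell, myeloid, T cell and platelet marker sums were higher in all *Mct1f/fMb1Cre* libraries. The NK and plasma cell sums were lower and the erythroid sums overlapped. The Y-linked gene *Ddx3y* was at 0.24 and 0.02 FPKM in the control libraries of day 0, at 31.1 and 0.20 in the *Mct1f/fMb1Cre* libraries of day 0 and at 14.7 to 16.9 in all libraries of day 3. Activation and sex of the mice therefore cannot be told apart in the control. The part of the other cells in the changes from day 0 to day 3, and in the genotype differences of day 3, was not tested. The genotypes on day 0, activation in *Mct1f/fMb1Cre* cells and the interaction are also mixed with sex in part, as *Ddx3y* differed among the day 0 libraries. *Mct1f/fMb1Cre* replicate 1 of day 0, with the high *Ddx3y*, also had the highest myeloid (1862 FPKM) and erythroid (232 FPKM) sums. The labels do not say that replicates came from separate mice, and p values then measure only the spread between these libraries. In bulk RNA, fewer cells that express a gene and less of its RNA per cell cannot be told apart.

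*Bsg* stood far above the transporters in every group. In naïve control B cells the order of mean FPKM was *Bsg* (96.2), *Slc16a6* (26.1), *Emb* (15.5), *Slc16a10* (5.57), *Slc16a3* (4.25), *Slc16a1* (4.07), *Slc16a7* (3.63) and *Slc16a13* (2.16). The ranges of *Slc16a3*, *Slc16a1* and *Slc16a7* overlapped with their neighbours, so that the 3 proton-linked lactate transporters were not separated from each other. *Slc16a1* ranked at the 49.6th percentile of all genes in these libraries and *Bsg* at the 96.0th.

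After activation the order was different. In activated control B cells *Slc16a3* (32.0) was second to *Bsg* (187), followed by *Slc16a6* (24.1), *Slc16a1* (22.8), *Emb* (15.045), *Slc16a13* (3.40), *Slc16a10* (2.13) and *Slc16a7* (0.67), and no neighbours overlapped. In activated *Mct1*-deficient B cells *Slc16a1* (10.0) stood below *Emb* (12.1), and the ranges of *Slc16a3* (24.2) and *Slc16a6* (21.3) overlapped.

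**Figure D1:**
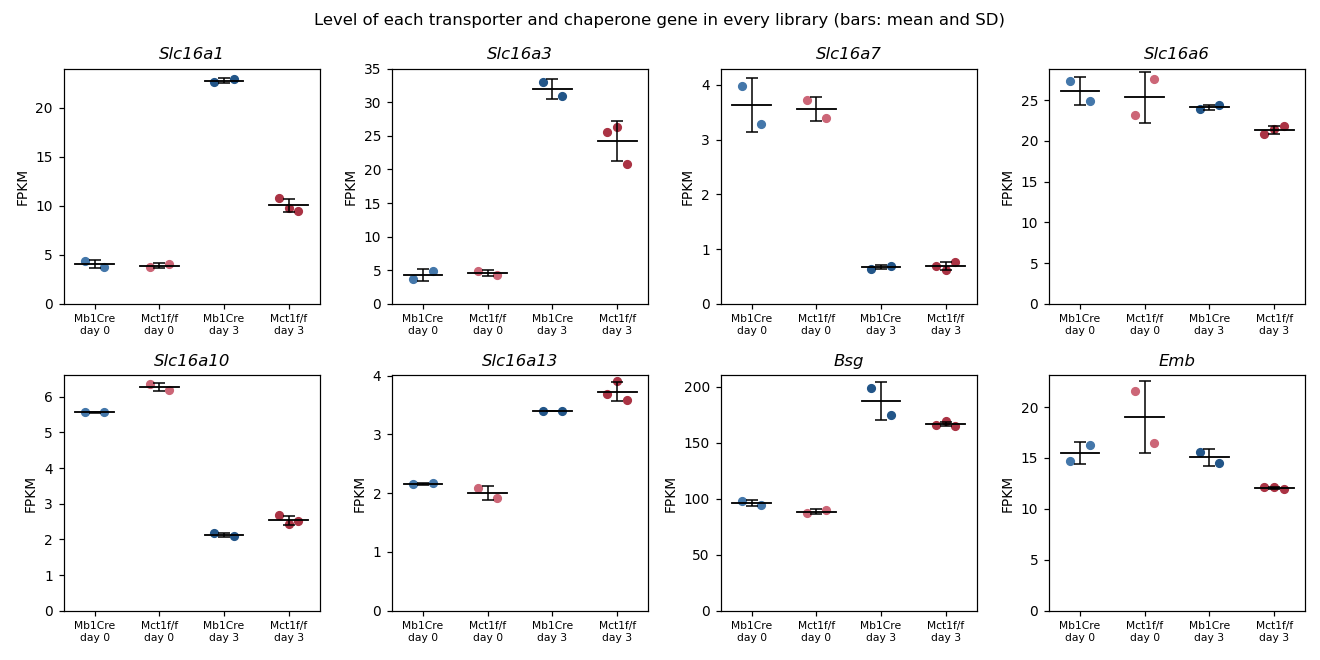
FPKM (y axis, from 0) of each gene in the 9 libraries, as points by group, with a line at the mean and a bar of 1 SD; Mct1f/f stands for *Mct1f/fMb1Cre*. *Slc16a1* lies between 22.6 and 23.0 in activated control cells and between 9.50 and 10.8 in activated *Mct1*-deficient cells, and *Slc16a7* lies at or under 0.76 in all libraries of day 3.

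To see how the genes responded to LPS and IL-4, day 3 was compared with day 0 within each genotype by limma on log2(FPKM + 1), a scale that understates the change of low genes. A gene was called at an adjusted p (Benjamini-Hochberg over all 10823 tested genes, those with a mean of at least 1 FPKM) under 0.05 with a difference of more than 0.5 on the log2 scale. All 8 genes passed this filter. In control B cells *Slc16a1*, *Slc16a3* and *Bsg* rose, *Slc16a7* and *Slc16a10* fell, and *Slc16a6*, *Slc16a13* and *Emb* were not called. These 5 calls stand against a background of 57.8% of all tested genes (24.8% higher and 33% lower). In the libraries labelled *Mct1f/fMb1Cre*, *Slc16a13* also rose and *Emb* fell, which gave 4 higher and 3 lower, against a background of 56.5% (23.4% higher and 33.2% lower). A call is thus common in this contrast, and the size of the differences says more than their number. The median difference of the 8 genes was 0.22 in the control and 0.21 in *Mct1f/fMb1Cre* cells, beside -0.12 and -0.14 for all tested genes. That shift of all genes depended on the scaling and was -0.31 and -0.30 with equal totals, 0.06 and 0.06 with median-of-ratios scaling and 0.01 and 0.02 with quantile normalization. The share of called genes that were higher was 42.9% in the control as deposited and 32%, 55.4% and 50.8% under these scalings, and 41.4%, 31.7%, 54.9% and 51.4% in *Mct1f/fMb1Cre* cells.

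*Slc16a1*, the targeted gene, was at 4.33 and 3.80 FPKM in naïve control cells and at 22.6 and 23.0 FPKM in activated ones, a 5.60-fold rise of the mean. In the libraries labelled *Mct1f/fMb1Cre* it went from 3.71 and 4.06 FPKM to 10.8, 9.81 and 9.50 FPKM, a 2.59-fold rise. The groups did not overlap in either genotype, as in 91.9% and 89.8% of all tested genes. The differences on the log2 scale were 2.23 (SE 0.08, limma adjusted p = 3.48e-10) and 1.18 (SE 0.07, limma adjusted p = 2.95e-08).

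*Slc16a3*, which encodes the exporter MCT4, rose the most among the 8 genes in both genotypes, relative to its own level on day 0 and under each scaling. It was at 3.62 and 4.87 FPKM in naïve control cells and at 33.1 and 30.9 FPKM in activated ones, 7.53-fold higher (log2 difference 2.66, SE 0.13, limma adjusted p = 3.85e-09). In *Mct1f/fMb1Cre* libraries it went from 4.95 and 4.31 FPKM to 25.5, 26.3 and 20.8 FPKM, 5.23-fold higher (log2 difference 2.16, SE 0.11, limma adjusted p = 9.51e-09). No library of day 0 came near those of day 3.

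*Slc16a7*, the high-affinity MCT2, moved the other way. It was at 3.98 and 3.28 FPKM in naïve control cells and at 0.64 and 0.70 FPKM in activated ones, and at 3.72 and 3.40 FPKM and then 0.69, 0.62 and 0.76 FPKM in *Mct1f/fMb1Cre* libraries. The mean of day 0 was 5.42 times and 5.16 times that of day 3, and the log2 differences were -1.47 (limma adjusted p = 9.78e-08) and -1.43 (limma adjusted p = 5.10e-08). *Slc16a10*, the aromatic amino acid carrier, fell likewise, from 5.56 and 5.58 FPKM to 2.17 and 2.09 FPKM in the control and from 6.35 and 6.19 FPKM to 2.68, 2.42 and 2.51 FPKM in *Mct1f/fMb1Cre* libraries. Its log2 differences were -1.07 (limma adjusted p = 7.96e-08) and -1.04 (limma adjusted p = 4.28e-08). Both genes were in their lowest range in all 5 activated libraries.

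*Slc16a6* was the highest transporter in naïve cells, and its level differed little between the days. It was at 27.3 and 24.9 FPKM in naïve and 23.9 and 24.4 FPKM in activated control cells, and at 23.1 and 27.6 FPKM and then 20.8, 21.4 and 21.8 FPKM in *Mct1f/fMb1Cre* libraries. The log2 difference in the control was -0.11 (95% interval -0.28 to 0.06) as deposited and 0.095 with median-of-ratios scaling. In *Mct1f/fMb1Cre* cells it was -0.23 (limma adjusted p = 0.0080), under the size limit, and ranged from -0.40 with equal totals to -0.023 (limma adjusted p = 0.756) with median-of-ratios scaling. *Amz2* and *Arsg*, which overlap its exons on the other strand, were at 8.22 and 1.63 FPKM in naïve and 3.29 and 1.28 FPKM in activated control cells.

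*Slc16a13* was low throughout. It went from 2.15 and 2.17 FPKM to 3.39 and 3.40 FPKM in the control (log2 difference 0.48, limma adjusted p = 1.36e-04), just under the size limit, and from 2.09 and 1.92 FPKM to 3.69, 3.90 and 3.58 FPKM in *Mct1f/fMb1Cre* libraries (0.65, limma adjusted p = 4.43e-06), just above it, and under it with a pseudocount of 5 (0.32). The difference between these 2 responses was not called (0.18, limma adjusted p = 0.321).

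Of the chaperones, *Bsg* rose and *Emb* did not. *Bsg* was at 98.0 and 94.5 FPKM in naïve control cells and at 199 and 175 FPKM in activated ones, and at 87.0 and 90.2 FPKM and then 166, 169 and 165 FPKM in *Mct1f/fMb1Cre* libraries. Its log2 differences were 0.95 (SE 0.06, limma adjusted p = 3.18e-08) and 0.91 (SE 0.05, limma adjusted p = 2.00e-08), so that the gene came close to doubling in both genotypes (1.95-fold and 1.88-fold). *Emb* was at 14.7 and 16.3 FPKM in naïve and 15.6 and 14.5 FPKM in activated control cells, and the ranges overlapped (log2 difference -0.04, 95% interval -0.26 to 0.18, and 0.16 with median-of-ratios scaling and 0.081 with quantile normalization). In *Mct1f/fMb1Cre* libraries it went from 21.5 and 16.5 FPKM to 12.1, 12.2 and 11.97 FPKM and fell by 0.60 on the log2 scale (limma adjusted p = 7.61e-05). The higher of the naïve values belongs to replicate 1, the library with the highest myeloid and erythroid marker sums. Without it the difference was -0.42 (limma adjusted p = 3.44e-04) and no longer past the size limit, as also with a pseudocount of 5 (-0.48), median-of-ratios scaling (-0.40) and quantile normalization (-0.47). The part of the other cells in this difference was not tested.

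**Figure D2:**
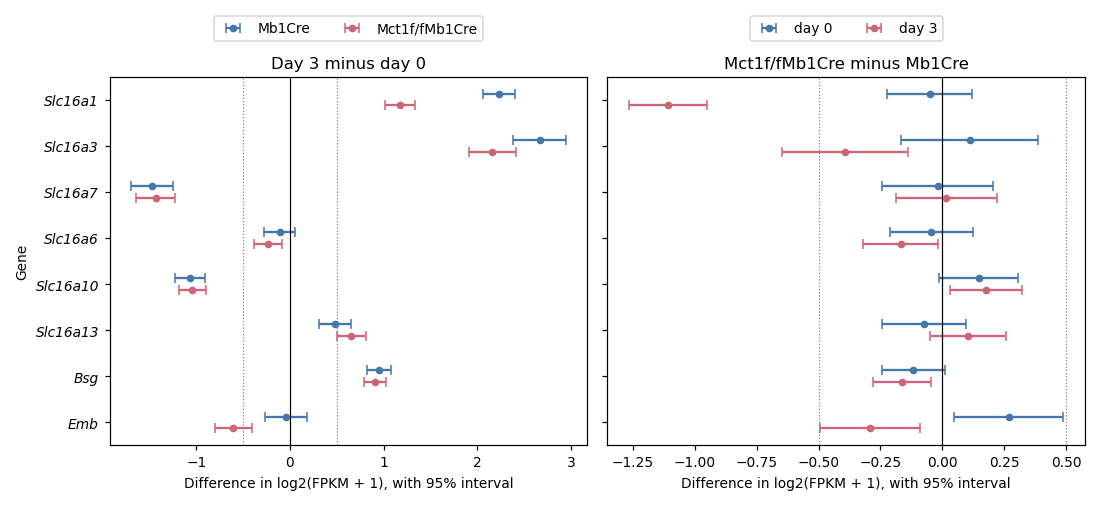
Differences in log2(FPKM + 1) with 95% intervals from limma (x axis) for each gene (y axis), day 3 minus day 0 in both genotypes on the left and *Mct1f/fMb1Cre* minus *Mb1Cre* on both days on the right; dotted lines mark the size limit of 0.5. On the right, the difference of *Slc16a1* on day 3 (-1.11) is the one beyond the limit.

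The genotypes were then compared on each day. On day 3 *Slc16a1* was the only one of the 8 genes called, lower in *Mct1*-deficient B cells, against a background of 2.42% of all tested genes. Its mean was 44.1% of the control (log2 difference -1.11, 95% interval -1.27 to -0.95, limma adjusted p = 9.07e-06), and the highest of the 3 *Mct1*-deficient libraries (10.8 FPKM) was less than the lower control library (22.6 FPKM). That share counts all exons and does not measure full-length transcript alone. *Slc16a3* was at 75.8% of the control, with 20.8 to 26.3 FPKM against 30.9 and 33.1 FPKM. Its log2 difference was -0.39 (95% interval -0.65 to -0.14) with a limma adjusted p of 0.0427, past the p threshold, as were 15.2% of all tested genes, and under the size limit. The adjusted p of *Slc16a3* was under 0.05 in 9 of 19 alternative settings, and the difference was negative in all of them (-0.45 to -0.29).

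*Emb* was at 80.3% and *Bsg* at 89.1% of the control on day 3, and neither passed the adjusted p (limma, 0.0539 and 0.0625). The difference of *Bsg* was -0.16 and rested on the control libraries of day 3, being -0.069 (limma adjusted p = 0.487) without replicate 1 and -0.26 (limma adjusted p = 0.0161) without replicate 2. That of *Emb* was -0.29, and its adjusted p was under 0.05 in 4 of 19 alternative settings. *Slc16a6* was at 88.5% (limma adjusted p = 0.131), *Slc16a10* at 119% (limma adjusted p = 0.1003), *Slc16a13* at 110% (limma adjusted p = 0.374) and *Slc16a7* at 103% (limma adjusted p = 0.935) of the control. The 95% intervals of these 6 genes ran from -0.495 at the lowest to 0.321 at the highest on the log2 scale, and none of them reached the interval of *Slc16a1*. The ranges of the genotypes did not overlap for 7 of the 8 genes, *Slc16a7* being the exception, as against 47.1% of all tested genes, and the median difference was -0.17 beside -0.01 for all tested genes.

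On day 0 none of the 8 genes was called by limma, where 0.277% of all tested genes were, and *Emb* was the only one with an unadjusted p under 0.05. In the libraries labelled *Mct1f/fMb1Cre*, *Slc16a1* was at 95.6% of the control (log2 difference -0.05, 95% interval -0.22 to 0.12, limma adjusted p = 0.844), and the ranges overlapped. At the gene level the targeted gene thus does not separate the genotypes among naïve cells, and directions drawn from these 2 libraries rest on their labels. *Emb* was at 123% (log2 difference 0.27, limma adjusted p = 0.343), *Slc16a10* at 113% and *Bsg* at 92.1% of the control. The ranges did not overlap for 4 of the 8 genes (*Bsg*, *Emb*, *Slc16a10*, *Slc16a13*), beside 38.4% of all tested genes, and the median difference was -0.03. The part of the sex of the mice in these differences was not tested.

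The interaction term, with which the sex of the mice is mixed in part, then tested whether the genotype acted differently on the 2 days. It was called for *Slc16a1* (-1.06, 95% interval -1.29 to -0.82, limma adjusted p = 4.24e-04) and for *Emb* (-0.56, 95% interval -0.86 to -0.26, limma adjusted p = 0.0288), against a background of 3.23%. For *Slc16a1* the call held in all 18 alternative settings. For *Emb* it was lost in 12 of 18, among them 7 of the 9 in which 1 library was left out, all but those without replicate 2 of either genotype on day 0. Without *Mct1f/fMb1Cre* replicate 1 of day 0 it was -0.38 (limma adjusted p = 0.0496), under the size limit. For *Slc16a3* the term was -0.50 (limma adjusted p = 0.0932), and without control replicate 2 of day 0 it was -0.68 (limma adjusted p = 0.0283) and called, the only call in 18 alternative settings, over which it ran from -0.68 to -0.33 with an adjusted p of up to 0.242. *Bsg*, *Slc16a6*, *Slc16a7*, *Slc16a10* and *Slc16a13* were not called (limma adjusted p 0.321 to 0.901).

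The composition of the transporter transcripts was described from the same values, with no test and with all exons of *Slc16a1* counted. In naïve control cells the 6 transporters summed to 47.0 and 44.6 FPKM, of which *Slc16a6* made up 57.0% ± 1.7 (SD, n = 2) and *Slc16a1* and *Slc16a3* together 18.2% ± 1.8. In naïve *Mct1f/fMb1Cre* libraries they summed to 44.0 and 47.5 FPKM, with 18.7% ± 1.5 from *Slc16a1* and *Slc16a3*. In activated control cells the sum was 85.7 and 84.4 FPKM and the share of *Slc16a1* and *Slc16a3* 64.4% ± 0.8. In activated *Mct1*-deficient cells the sum was 64.2, 64.5 and 59.0 FPKM and this share 54.7% ± 2.9 (SD, n = 3). *Slc16a1* alone made up 26.8% ± 0.6 of the sum in activated control and 16.1% ± 0.8 in *Mct1*-deficient cells, while the share of *Slc16a3* was 37.6% ± 1.4 and 38.6% ± 2.9, with overlapping ranges. These shares are of a sum that was itself lower in activated *Mct1*-deficient cells, where the mean FPKM of *Slc16a3* was 75.8% of the control. *Slc16a3* exceeded *Slc16a1* by a factor of 1.35 to 1.46 in activated control libraries and of 2.19 to 2.69 in *Mct1*-deficient ones.

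**Figure D3:**
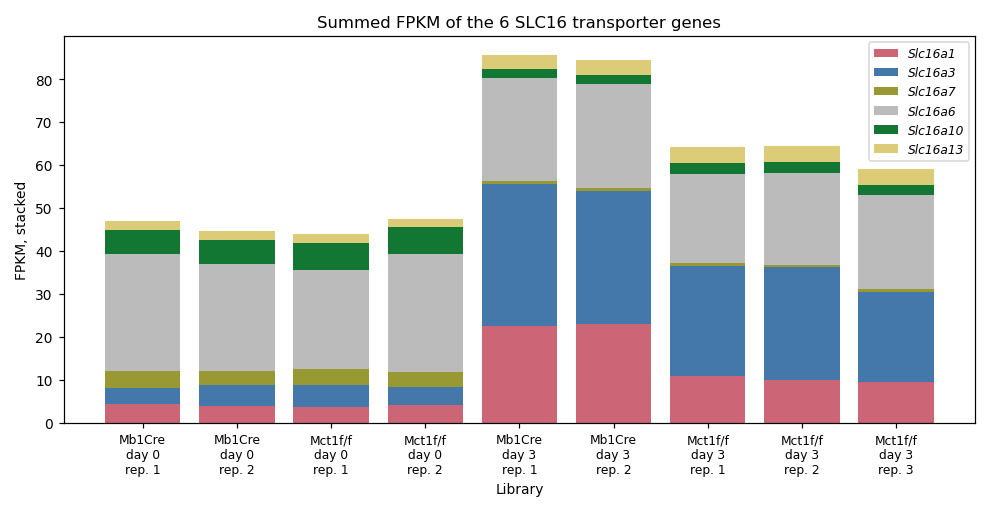
Stacked FPKM (y axis, from 0) of the 6 transporter genes in each of the 9 libraries (x axis); Mct1f/f stands for *Mct1f/fMb1Cre*. The stacks reach 44.0 to 47.5 on day 0, 84.4 and 85.7 in activated control libraries and 59.0 to 64.5 in activated *Mct1*-deficient libraries, and *Slc16a6* is the largest block on day 0.

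At the RNA level, the FPKM of *Bsg* was above that of *Slc16a1* and *Slc16a3* together in every library. The ratio of *Bsg* to the sum of *Slc16a1* and *Slc16a3* was 10.0 to 12.3 in the 4 naïve libraries, 3.58 and 3.25 in activated control libraries and 4.58 to 5.44 in activated *Mct1*-deficient ones. The ratio of *Bsg* to *Emb* was 4.04 to 6.65 on day 0 and 12.1 to 13.9 on day 3.

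Other SLC16 genes were low. *Slc16a9*, which encodes a carnitine transporter, was at 2.41 to 3.23 FPKM on day 0 and listed at 0 in all 5 libraries of day 3. *Slc16a4*, *Slc16a5*, *Slc16a8*, *Slc16a11*, *Slc16a12* and *Slc16a14* were at or under 0.87 FPKM in every library and were not tested. The 6 transporters described here made up 90.2% to 91.8% of the summed FPKM of the family on day 0 and 97.6% to 98.9% on day 3.

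Genes that make or use lactate and pyruvate were counted next. Of 20 listed genes 19 were in the table and 13 were tested, of which 6 rose and 3 fell upon activation in each genotype (median difference 0.48 in the control and 0.46 in *Mct1f/fMb1Cre* cells). Of all tested genes 57.8% and 56.5% were called, with medians of -0.12 and -0.14 that moved with the scaling as given above. *Pkm*, pyruvate kinase, rose from 184 and 180 FPKM to 1001 and 972 FPKM in the control (log2 difference 2.43), and *Ldha*, lactate dehydrogenase A, from 158 and 154 FPKM to 808 and 784 FPKM (2.35). *Ldhb*, whose product favours lactate oxidation, fell from 3.64 and 2.51 FPKM to 0.20 and 0.24 FPKM (-1.73), and *Pdk2*, a kinase that restrains pyruvate dehydrogenase, fell from 7.34 and 7.07 FPKM to 1.61 and 1.39 FPKM (-1.72). On day 3 none of the 13 was called between the genotypes by limma (median -0.08), and 5 had an unadjusted p under 0.05. *Pkm* (-0.16, limma adjusted p = 0.0239) and the mitochondrial pyruvate carrier genes *Mpc1* (-0.20, limma adjusted p = 0.0272) and *Mpc2* (-0.25, limma adjusted p = 0.0318) were past the p threshold only and are named here after their values were seen.

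Among the 8 genes of the basigin family and its partners, 5 rose and 1 fell upon activation in each genotype, again beside 57.8% and 56.5% of all tested genes called. *Slc7a5*, the light chain of the large neutral amino acid transporter, rose from 11.9 and 10.4 FPKM to 95.6 and 97.6 FPKM in the control (3.01), *Cd44* from 44.9 and 46.0 FPKM to 143 and 142 FPKM (1.62), and *Slc3a2*, the heavy chain CD98, from 62.4 and 63.4 FPKM to 141 and 142 FPKM (1.16). *Itga6*, an integrin chain, fell (-1.09). *Nptn*, the third member of the basigin family, was at 49.8 to 67.0 FPKM in all libraries and was not called. None of the 8 was called between the genotypes by limma on either day, with 1 at an unadjusted p under 0.05 on day 0 and 2 on day 3.

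Of 10 genes of proton handling 9 were tested, of which 1 rose and 4 fell upon activation in each genotype, a share near that of all tested genes (57.8% and 56.5%). *Car13*, a cytosolic carbonic anhydrase, rose from 1.74 and 1.28 FPKM to 27.5 and 28.2 FPKM in the control (3.53), and *Hvcn1*, the voltage-gated proton channel, fell from 409 and 427 FPKM to 162 and 168 FPKM (-1.34). *Slc4a2*, an anion exchanger, also fell (-0.85). On day 3, 2 of the 9 were called, both lower in *Mct1*-deficient B cells, beside 2.42% of all tested genes. *Hvcn1* was past the p threshold in the other direction, under the size limit, on day 3 (0.32, limma adjusted p = 7.58e-04) and in the interaction (0.39, limma adjusted p = 0.0054). *Car2*, a second carbonic anhydrase, was at 12.6 and 13.5 FPKM in the control and 6.31, 6.09 and 4.99 FPKM in *Mct1*-deficient cells (-1.05, limma adjusted p = 0.0066). Without control replicate 2 of day 3 its adjusted p (limma) was 0.0582. *Car13* was at 19.7, 18.7 and 18.9 FPKM in *Mct1*-deficient cells (-0.52, limma adjusted p = 0.0017), and with a pseudocount of 5 (-0.45) or quantile normalization (-0.48) it was under the size limit.

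The genes most alike to each member were sought over the 9 libraries, by the root mean square difference of log2(FPKM + 1) after centring each gene on its own mean. For *Slc16a1* they were *Crem*, a cAMP-responsive transcription factor (0.08), *Dusp14*, a phosphatase (0.14), and *Il10*, a cytokine (0.15). *Crem* was at 26.1 and 24.8 FPKM in activated control cells and at 13.0, 13.0 and 11.9 FPKM in activated *Mct1*-deficient cells, and at 4.65 to 5.33 FPKM on day 0. In the control means *Dusp14* went from 0.16 to 4.92 FPKM and *Il10* from 0.11 to 4.72 FPKM. Both were under 1 FPKM on day 0, where the pseudocount understates their rise, so their likeness to *Slc16a1* holds on this scale only. The nearest other member was *Bsg*, at 0.49. *Slc16a3* was most like *Bnip3* (0.12), a mitophagy receptor, and *Prr11* (0.13), *Bsg* most like *Sod1* (0.04), the cytosolic superoxide dismutase, and *Mrps18b* (0.04), a mitochondrial ribosomal protein gene, and *Slc16a7* most like *Cacna1e* (0.04) and *Slc36a1* (0.04). For *Slc16a10* these genes were *Ap3m2* (0.05) and *Synj2bp* (0.05), for *Slc16a6* *Zbtb5* (0.05) and *Uqcc1* (0.05), for *Slc16a13* *Tnfrsf22* (0.04) and *Rae1* (0.04), and for *Emb* *Gsto1* (0.08) and *Lsr* (0.09). The likeness is over 9 libraries that share the contrast between the days and is given as a description.

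**Figure D4:**
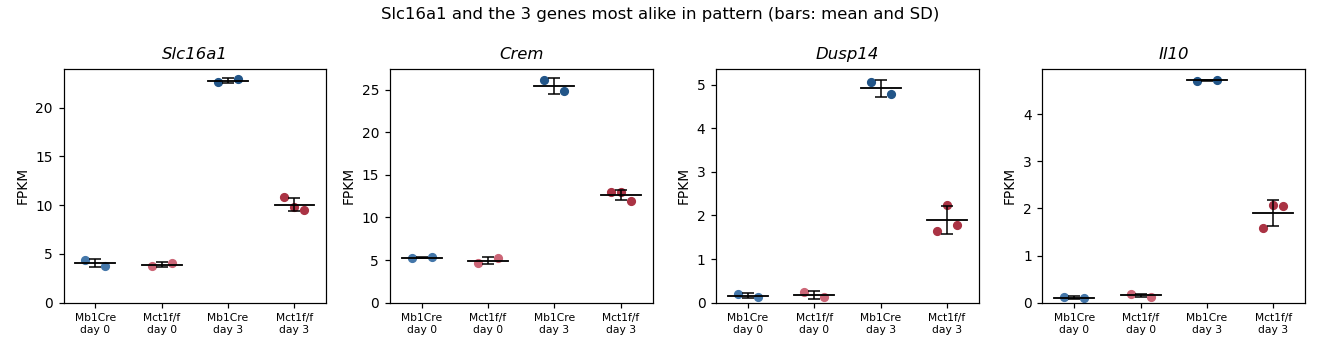
FPKM (y axis, from 0) of *Slc16a1* and of the 3 genes most alike to it, by group as points with the mean and 1 SD; Mct1f/f stands for *Mct1f/fMb1Cre*. In each panel the activated control libraries lie highest, with *Crem* at 24.8 and 26.1, and the activated *Mct1*-deficient libraries lie between these and day 0.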

How the data were processed

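The 9 libraries were taken from one table of 17596 genes, deposited as FPKM with 2 decimals. The submitters' processing notes name Bowtie2 and the builds GRCm38 and mm10, and the authors' counting tool, strand setting and versions are not given in the sources used here. The FPKM values could not be traced back to whole reads, so depth per library is unknown and no count test, counting interval or floor was used (95% intervals are those of the limma fit). Groups came from the sample labels. The 8 genes and the gene lists were chosen with earlier results of these data known.

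log2(FPKM + 1) of 10823 genes (mean of 1 FPKM or more) was fitted with limma 3.58.1 in R 4.3.3 (1 mean per group, all 9 libraries, trend, no block). A call needed an adjusted p below 0.05 together with a log2 difference over 0.5 in size. The script was tested on simulated data with 200 changed genes. Named are the 8 members, from each list up to 4 called genes with the largest difference in each comparison or genes compared by level, and the 2 or 3 genes nearest in pattern. *Itga6*, *Mpc1* and *Mpc2* are named in addition to this rule. A few listed genes that this rule would name are not reported here. Alternatives were other pseudocounts (0.1 and 5), filters (none, 5 FPKM), scalings, size limits (none, 1), a fit to the groups compared, no trend, a replicate block and leaving out each library. Sequences and positions came from RefSeq (GRCm38.p6), GENCODE (GRCm38) and the study's primer list, with Python 3.11.15, pandas 2.3.3 and matplotlib 3.10.9.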

Additional observations from a re-analysis of the deposited data

Results flagged for a closer look

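The effect of the genotype differed between day 0 and day 3 by limma's interaction term for *Slc16a1* (-1.06) and *Emb* (-0.56) among the 8 transporter and chaperone genes, and for the carbonic anhydrase genes *Car2* (-1.37) and *Car13* (-0.55) of the proton handling list. *Car2* was at 30.0, 16.6, 23.5 and 33.6 FPKM in the 4 naïve libraries, a wide spread within both genotypes. The call of *Car2* was lost in 6 of 18 alternative settings, with adjusted p (limma) up to 0.0959, and that of *Car13* in 9 of 18, up to 0.0687. These 4 genes were tested with all others, and 3.23% of all tested genes were called. The part of the sex of the mice in these terms was not tested. Groups of 2 or 3 libraries are too small to test for a single library that stands apart. *Mct1f/fMb1Cre* replicate 1 of day 0 differed in *Ddx3y* and in its myeloid and erythroid marker sums, as given above.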

How the results depend on the processing

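For *Slc16a1* the calls upon activation, on day 3 and of the interaction held in all alternatives, with log2 differences of 1.62 to 2.46 in the control, 0.76 to 1.501 in *Mct1f/fMb1Cre* cells and -1.18 to -0.89 between the genotypes on day 3. On day 0 its difference, which was not called, was -0.127 to 0.024 when 1 library was left out, positive without replicate 1 of either genotype. The number of members called upon activation was 3 in the control with a mean of at least 5 FPKM, which leaves fewer genes, and 4 in *Mct1f/fMb1Cre* cells with that filter or a limit of 1. On day 3 it was 2 with no limit on the difference. For the interaction it was 1 with a pseudocount of 5, with no filter, with quantile normalization, with no trend, with a limit of 1 and with the replicate block, and 1 to 3 when 1 library was left out. The cause was not tested.

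Some differences that were not called changed sign. Upon activation of the control, *Emb* was 0.159 with median-of-ratios scaling, 0.081 with quantile normalization and -0.11 to 0.028 when 1 library was left out, and *Slc16a6* was 0.095 with median-of-ratios scaling. On day 0, leaving out 1 library gave -0.063 to 0.283 for *Slc16a3*, -0.167 to 0.077 for *Slc16a6* and -0.128 to 0.091 for *Slc16a7*. On day 3 it gave -0.013 to 0.047 for *Slc16a7*, which was -0.013 with the replicate block. In the interaction it gave -0.138 to 0.048 for *Bsg* and -0.074 to 0.145 for *Slc16a7*, and *Slc16a10* was -0.013 with a pseudocount of 5. *Slc16a13* in the control was called with a pseudocount of 0.1 (0.63), median-of-ratios scaling (0.63) and quantile normalization (0.87).

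Over all tested genes, the 30 calls on day 0 became 13 with no filter, 2 with only the groups compared, 16 with a limit of 1, 101 without control replicate 2 and 67 without *Mct1f/fMb1Cre* replicate 2. The 262 calls on day 3 became 421 and 120 with pseudocounts of 0.1 and 5, and 1650 and 54 with no limit and a limit of 1. The 350 of the interaction became 156 with a pseudocount of 5, 1020 and 56. The 6258 and 6120 calls upon activation became 3191 and 2994 with a limit of 1, and the 6120 became 9258 with no limit. Deviations of libraries with the same replicate number correlated between -0.12 and 0.09. In groups of 2 libraries the deviations mirror each other, so these values cannot exclude that the numbers pair the libraries. With the replicate block the *Emb* interaction was lost (-0.56, limma adjusted p = 0.0740), as were those of *Car2* (0.0704) and *Car13* (0.0632). With the control numbers crossed between the days, an alternative added after seeing the data, 5 members and 6257 genes were called. Depth is unknown and limits the low genes.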
